A study of Mus musculus with 15 samples.

Results

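The lysyl oxidases are 5 related enzymes encoded in the mouse by Lox, Loxl1, Loxl2, Loxl3 and Loxl4. All 5 were taken by gene symbol from the 36653 gene identifiers of an RNA sequencing study of the mouse heart. Each member had a row in the table, and 4 of the 5 reached the mean level of 0.5 FPKM required for testing, with Loxl4 below it. FPKM counts sequenced fragments relative to gene length and library size, so levels can be compared between genes of different length.

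The hearts came from wild-type C57BL/6 mice aged 10 weeks, and poly(A)-selected RNA of the ventricles was sequenced on an Illumina HiSeq2000. There were 3 groups with 5 biological replicates in each. The vehicle group received saline. In the AngII group, pumps under the skin delivered 1000 ng/kg/min of angiotensin II, which constricts vessels and raises blood pressure. Mice of the AngII plus OA group carried such a pump too and were given oleic acid (OA), the main fatty acid of olive oil, in a daily volume of 0.3 mL and at a dose of 160 mg/kg. Neither the sex of the mice nor the length of treatment is stated in the sources used here. The title of the series names protection by oleic acid in cardiac remodelling under angiotensin II as its subject.

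Lysyl oxidases are copper-dependent amine oxidases that act outside the cell. They oxidise lysine and hydroxylysine side chains of collagen and elastin, and the aldehydes formed then condense into covalent cross-links that make the matrix stiff and hard to degrade. Lox and Loxl1 carry a propeptide that is removed by procollagen C-proteinases of the Bmp1 and tolloid family. Loxl2, Loxl3 and Loxl4 carry scavenger receptor cysteine-rich domains in front of the catalytic domain. In the heart the family is best known from fibrosis, where fibroblasts are a main source.

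The coding sequences differed in length between these subgroups. They held 1236 bases in Lox and 1824 in Loxl1, against 2331 in Loxl2, 2265 in Loxl3 and 2277 in Loxl4, in GENCODE M21 transcripts. Identity was taken over 717 aligned bases, all within runs of at least 60 bases without a gap in any member. Over these bases Loxl2 and Loxl4 were identical at 71.0%, Loxl2 and Loxl3 at 69.7%, and Lox and Loxl1 at 67.9%. Identity between Lox and the 3 longer members was 50.9% to 53.1%. The stretch of 60 coding bases in which Loxl1, Loxl2, Loxl3 and Loxl4 were most alike is shown 5′ to 3′, because it bears on whether reads of the members can be told apart. Capitals mark the 40 bases that are the same in these 4 members, and lower case the bases that are not.
Loxl1: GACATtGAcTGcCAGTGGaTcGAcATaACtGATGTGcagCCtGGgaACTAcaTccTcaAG
Loxl2: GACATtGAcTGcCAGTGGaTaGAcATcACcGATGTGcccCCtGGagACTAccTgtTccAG
Loxl3: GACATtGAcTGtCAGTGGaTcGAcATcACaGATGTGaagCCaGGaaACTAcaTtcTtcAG
Loxl4: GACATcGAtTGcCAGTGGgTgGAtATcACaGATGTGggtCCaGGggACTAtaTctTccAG
The stretch covers coding bases 1642 to 1701 of Loxl1, 2080 to 2139 of Loxl2, 2020 to 2079 of Loxl3 and 2035 to 2094 of Loxl4, counted from 1 at the start codon. Even here no run of capitals is long. Over the whole coding sequences, the longest run shared letter for letter was 32 bases, between Lox and Loxl1, and the shortest such maximum was 11 bases, between Lox and Loxl4. Exons of Loxl3 share 535 bases, or 11.6% of its exon length, with Htra2 on the opposite strand. The sources used here do not say whether the counting used strand, so reads of Loxl3 and Htra2 cannot be told apart there. Htra2 itself ranged from 2.43 to 4.23 FPKM over the 15 libraries.

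The totals behind the FPKM values were inferred from the steps between values, with reference exon lengths. They were 24.5 to 28.3 M per library, and 10990 to 11528 genes reached 1 FPKM. Reads recovered in this way summed to 26.6 to 30.8 M over genes, more than the inferred total in every library. Of the values with few reads, 89.8% to 90.9% gave whole reads. Mitochondrially encoded genes took 34.5% to 50.02% of the FPKM. Cardiomyocyte transcripts were abundant in every library, with 6 markers of ventricular muscle, some of which atrial muscle also makes, summing to 9675 to 24203 FPKM. AngII replicate 2 stood apart. Its cardiomyocyte sum of 9675 FPKM was the lowest and compares with 17211 in the next AngII library. It had the highest sums of the 3 atrial markers (2427 FPKM, against 569 in the next AngII library), of the 3 adipocyte markers (277 against 81.4) and of the 4 mesothelial markers (74.8 against 10.4). Its sum of the 5 smooth muscle markers was the lowest, at 53.1 FPKM. Where they were computed, values that it moves by over 1.5 times, and calls that it changes, are therefore given without it as well. Atrial markers varied widely in all groups, from 2.79 to 691 FPKM in vehicle, 2.84 to 2427 in AngII and 1.93 to 595 in AngII plus OA. The 6 fibroblast markers summed to 410 to 781 FPKM in vehicle, 736 to 1217 in AngII and 535 to 1112 in AngII plus OA, and all 6 passed the filter. The 1217 FPKM was again AngII replicate 2, against 1002 in the next AngII library. In RNA from whole ventricles, a change in the number of cells of a type and a change in RNA per cell cannot be told apart.

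In vehicle hearts Loxl1 was by far the most abundant member. Loxl1 stood at 15.8 ± 2.11 FPKM (SD, n = 5), above 83.3% of the genes tested. Loxl2 at 3.06 ± 0.783 FPKM, Lox at 2.42 ± 0.633 FPKM and Loxl3 at 1.72 ± 0.449 FPKM followed. Loxl4 was hardly detected, at 0.152 ± 0.0481 FPKM. The ranges of Loxl2 (2.46 to 4.42 FPKM) and Lox (1.71 to 3.45 FPKM) overlapped, as did those of Lox and Loxl3 (1.34 to 2.28 FPKM). Within libraries, Loxl2 was above Lox in 5 of 5 vehicle hearts and Lox above Loxl3 in 4 of 5, so the order of Lox and Loxl3 was not the same in every heart. Loxl1 and Loxl4 were separated from all other members. Behind these levels stood 1156 to 4506 recovered reads per library for Loxl1, 202 to 8292 for Lox, 286 to 1235 for Loxl2 and 165 to 1811 for Loxl3, over all 15 libraries. Loxl4 rested on only 4 to 30 reads.

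**Figure D1:**
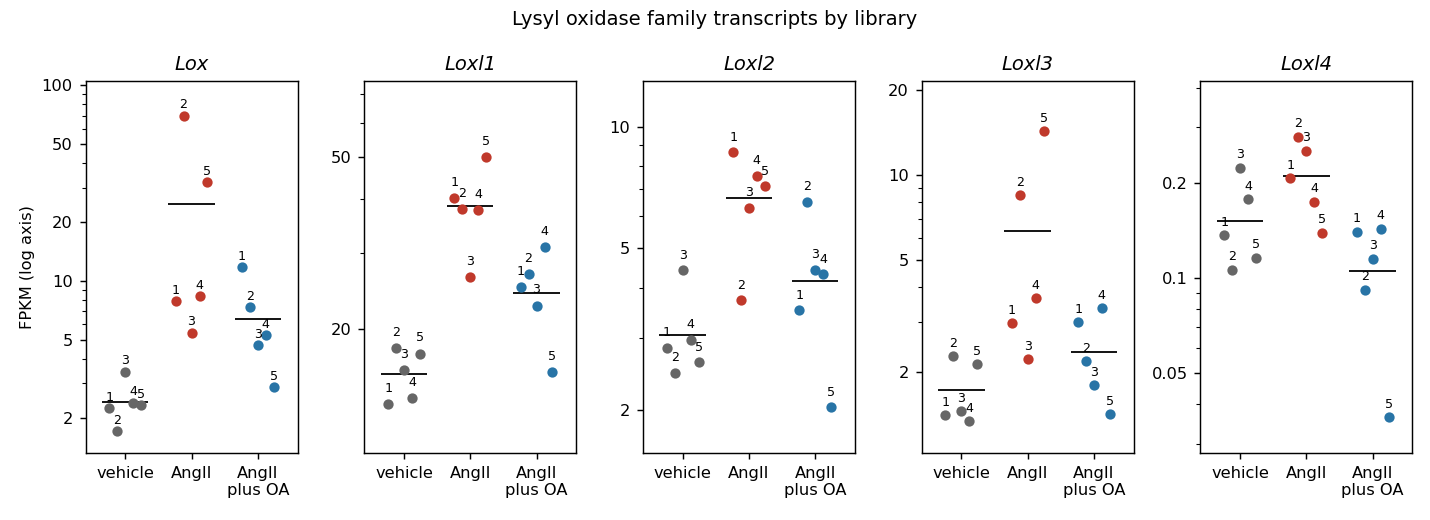
FPKM of the 5 members (log axis, a separate scale for each gene) in vehicle, AngII and AngII plus OA hearts; each point is a library with its replicate number, and the bar is the group mean. Lox in AngII hearts spans 5.45 to 70.0 FPKM, and its 5 vehicle libraries lie between 1.71 and 3.45.

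The comparison of AngII with vehicle asks how the family responded to angiotensin II. Lox, the founding member and the enzyme most closely tied to collagen cross-linking, had the largest difference. In the vehicle libraries 1 to 5, Lox stood at 2.23, 1.71, 3.45, 2.39 and 2.33 FPKM. In the AngII libraries 1 to 5 it stood at 7.92, 70.0, 5.45, 8.41 and 32.1 FPKM. The groups did not overlap, although 3 AngII libraries lay within 5.45 to 8.41 FPKM while replicates 2 and 5 were several times higher. The difference was 2.30 on the log2(FPKM + 1) scale (SE 0.53, 95% interval 1.18 to 3.42, limma adjusted p = 0.0396), on which differences of low values are understated. The AngII mean was 24.8 ± 27.5 FPKM against 2.42 ± 0.633 in vehicle (SD, n = 5 each), a ratio of means of 10.2 and of medians of 3.62. Without AngII replicate 2, the library with few cardiomyocyte and many atrial, adipocyte and mesothelial transcripts, the AngII mean was 13.5 ± 12.5 FPKM (SD, n = 4), the ratio of means 5.56 and the log2 difference 1.78 (limma adjusted p = 0.0411). The part of those other cell types, or of any other trait of that library, in the Lox level was not tested. The call rested on a narrow margin: it was kept without AngII replicate 2 or AngII replicate 3 and lost without any other single library, vehicle or AngII, with limma adjusted p of 0.0535 to 0.112.

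Loxl1, which in the mouse is required for elastic fibre renewal, rose more evenly. The vehicle libraries 1 to 5 held 13.4, 18.1, 16.1, 13.9 and 17.6 FPKM of Loxl1. The AngII libraries 1 to 5 held 40.2, 37.9, 26.4, 37.7 and 49.9 FPKM. Every AngII library exceeded every vehicle library, and AngII replicate 2 was close to its group's mean. The mean rose from 15.8 ± 2.11 to 38.4 ± 8.37 FPKM (SD, n = 5 each), a ratio of 2.43, with a log2 difference of 1.21 (SE 0.18, 95% interval 0.84 to 1.58, limma adjusted p = 0.0114). This call was kept in all 10 fits that left out a single library. The coefficient of variation in AngII hearts was 21.8% for Loxl1 and 111% for Lox, against 13.3% and 26.1% in vehicle hearts.

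Loxl2, a secreted member linked to cross-linking of basement membrane collagen, was higher in most AngII libraries without passing the threshold. It stood at 2.84, 2.46, 4.42, 2.97 and 2.62 FPKM in the vehicle libraries 1 to 5. In the AngII libraries 1 to 5 it stood at 8.64, 3.73, 6.30, 7.56 and 7.13 FPKM. In 4 of the 5 AngII libraries Loxl2 lay above the highest vehicle value, and the exception was AngII replicate 2. The log2 difference was 0.90 (SE 0.22, limma adjusted p = 0.0614), and without AngII replicate 2 it was 1.06 (limma adjusted p = 0.0207), which passes. Lox and Loxl2 thus differed in that library, which held the highest Lox and the lowest Loxl2 of the AngII group.

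Loxl3 stood at 1.41, 2.28, 1.45, 1.34 and 2.14 FPKM in the vehicle libraries 1 to 5. The AngII libraries 1 to 5 held 2.98, 8.49, 2.22, 3.67 and 14.4 FPKM. As with Lox, replicates 2 and 5 were the highest and replicate 3 the lowest of the AngII group, and replicate 3 fell within the vehicle range. The log2 difference was 1.19 (SE 0.34, limma adjusted p = 0.0963), and only leaving out AngII replicate 3 brought it past the threshold (limma adjusted p = 0.0286). Loxl4, tested by exact permutation because it was below the filter, had 0.152 FPKM in vehicle and 0.210 ± 0.0569 in AngII hearts (SD, n = 5 each; 2-sided exact permutation p = 0.127).

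In total limma called 2 of the 4 tested members, both higher, where 1.27% of the 13121 genes tested were called higher. In these FPKM values, limma called 166 genes higher and 31 lower. The split was 69 to 40 after quantile normalization and 86 to 37 after rescaling without mitochondrially encoded genes, and the signs of the 4 members were the same under both. The median log2 difference of the 4 members was 1.20, beside 0.07 for all genes tested. Values of AngII and vehicle did not overlap for Lox and Loxl1, where 3.13% of the genes tested were higher without overlap.

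**Figure D2:**
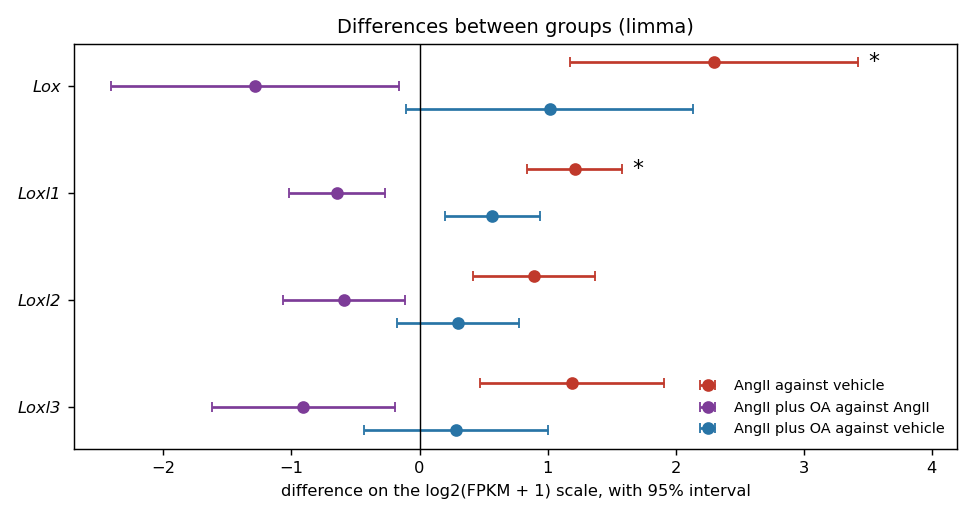
Differences between groups on the log2(FPKM + 1) scale for the 4 tested members, with 95% intervals from limma; colours give the comparison and asterisks an adjusted p under 0.05. The Lox and Loxl1 intervals for AngII against vehicle (1.18 to 3.42 and 0.84 to 1.58) carry the only asterisks.

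Adding oleic acid to AngII asks whether the members stood at other levels than under AngII alone. Group means of all 5 members were lower with OA, but no member was called. Lox stood at 11.8, 7.33, 4.72, 5.30 and 2.86 FPKM in the AngII plus OA libraries 1 to 5. These values overlapped both other groups: only 3 of the 5 lay below the lowest AngII library, and 1 lay within the vehicle range. The mean was 6.40 ± 3.42 FPKM (SD, n = 5), with a log2 difference from AngII of -1.28 (95% interval -2.41 to -0.16, limma adjusted p = 0.737). Over the 10 fits that left out a single library, this difference ran from -1.63 to -0.76, with 0 calls. The ratio of the means of AngII plus OA and AngII was 0.258 with all libraries and 0.476 without AngII replicate 2.

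Loxl1 stood at 25.0, 26.9, 22.7, 30.9 and 16.0 FPKM in the AngII plus OA libraries 1 to 5. Here 3 of the 5 values lay below the lowest AngII library, and only replicate 5 was within the vehicle range. The mean was 24.3 ± 5.56 FPKM (SD, n = 5), with a log2 difference from AngII of -0.64 (95% interval -1.02 to -0.27, limma adjusted p = 0.706). Taken as a single value, without adjustment for the other genes, the difference had a 2-sided exact permutation p of 0.0238.

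Loxl2 stood at 3.52, 6.53, 4.43, 4.32 and 2.03 FPKM in the AngII plus OA libraries 1 to 5, with a log2 difference from AngII of -0.59 (95% interval -1.07 to -0.12, limma adjusted p = 0.7097). Loxl3 stood at 3.01, 2.19, 1.79, 3.36 and 1.42 FPKM, with a log2 difference of -0.91 (95% interval -1.62 to -0.19, limma adjusted p = 0.7097). Both overlapped the AngII group. Loxl4 had a mean of 0.105 ± 0.0438 FPKM (SD, n = 5), with an exact permutation p of 0.0238 against AngII as a single unadjusted value, on 4 to 16 reads per library. When Loxl4 entered the fit over all genes without the filter, its limma adjusted p was 0.846.

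No gene at all was called in this comparison: 0 of 13121 (0%), with 866 genes at an unadjusted p under 0.05 in limma. No member was lower in every AngII plus OA library than in every AngII library, where 1.04% of the genes tested were. AngII plus OA replicate 5 was the lowest of its group for each of the 5 members, and its family sum of 22.3 FPKM lay within the vehicle range of 20.1 to 25.6. The other 4 libraries of the group summed to 33.7 to 44.1 FPKM. That library was also the lowest of its group for Col1a1 (8.05 FPKM), Col1a2 (9.63 FPKM) and Col3a1 (20.2 FPKM).

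AngII plus OA against vehicle shares its libraries with the comparisons already given, so the values are set side by side. The log2 differences from vehicle with OA and without OA were 1.02 and 2.30 for Lox, 0.57 and 1.21 for Loxl1, 0.30 and 0.90 for Loxl2, and 0.28 and 1.19 for Loxl3. With OA none of the 4 was called (limma adjusted p = 0.99999 for each), and neither was any of the 13121 genes (0%; 441 at an unadjusted p under 0.05). As single unadjusted values, Lox (exact permutation p = 0.0159) and Loxl1 (exact permutation p = 0.0317) each had 4 of 5 AngII plus OA libraries above the highest vehicle library. No member was free of overlap, where 0.655% of the genes tested were higher without overlap. The intervals still allow sizeable differences, up to 2.14 for Lox and 0.94 for Loxl1.

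Whether members changed unequally was tested on the ratio of each of the 10 pairs within a library. In AngII against vehicle, 6 of the 10 ratios passed after adjustment over the pairs. Lox moved 1.40 further than Loxl2 on the log2 scale (exact permutation p = 0.0159, adjusted 0.0317). The SD of this ratio was 1.79 in AngII and 0.0850 in vehicle hearts. In AngII replicates 1, 3 and 4, Lox (7.92, 5.45 and 8.41 FPKM) lay close to Loxl2 (8.64, 6.30 and 7.56 FPKM). Lox was far above Loxl2 only in replicates 2 (70.0 and 3.73 FPKM) and 5 (32.1 and 7.13 FPKM). Lox moved 1.11 further than Loxl3 (exact permutation p = 0.00794, the smallest that 5 against 5 libraries can give, adjusted 0.0265). These differences were 0.71 and 0.75 without AngII replicate 2 (exact permutation p = 0.0159, adjusted 0.0317, for both), where 5 of the 10 ratios passed and that of Loxl3 to Loxl4 did not. The other 4 were the ratios of each member to Loxl4, whose own level was so low that they mostly repeat the change of the other member. For Lox and Loxl1 no difference was detected (1.09, exact permutation p = 0.111, adjusted 0.159); the ratio had an SD of 1.33 in AngII and 0.344 in vehicle hearts, and the difference was 0.57 without AngII replicate 2 (exact permutation p = 0.175). Leaving out vehicle replicate 1, 2, 4 or 5 left 0 of the 10 ratios past the threshold, while the difference between Lox and Loxl2 stayed at 1.38 to 1.43 in all 5 such fits. None of the 10 passed in AngII plus OA against AngII. In AngII plus OA against vehicle 2 passed, Lox to Loxl2 (0.71, exact permutation p = 0.00794, adjusted 0.0397) and Lox to Loxl4. That count was 0 when any single vehicle library was left out, with Lox to Loxl2 at 0.68 to 0.74.

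The make-up of the family was taken from the same FPKM values, so it is not separate support for unequal change. Lox supplied 10.5% ± 2.45 of the summed family FPKM in vehicle, 26.1% ± 19.4 in AngII hearts and 16.6% ± 6.20 with OA added (SD, n = 5 each). The AngII libraries 1 to 5 had Lox shares of 13.2%, 58.1%, 13.4%, 14.6% and 30.9%, so the mean lies far above 3 of its 5 values. The vehicle shares ran from 6.94% to 13.44%, a range that held AngII replicates 1 (13.22%) and 3 (13.42%). By exact permutation, the share was higher than in vehicle under AngII (p = 0.0238) and under AngII plus OA (p = 0.0317), and no difference was detected between the 2 treated groups (p = 0.333). The AngII difference of 15.6 percentage points was 7.56 without AngII replicate 2 (exact permutation p = 0.0238), and it was 14.7 to 16.3 when any single vehicle library was left out, where 4 against 5 libraries no longer passed (exact permutation p of 0.111 to 0.175). The AngII plus OA difference of 6.12 points was 3.48 without AngII plus OA replicate 1 (exact permutation p = 0.0635) and also lost its call without vehicle replicate 1, 2, 4 or 5. Loxl1 held the largest share in every library but AngII replicate 2, where it held 31.5%.

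**Figure D3:**
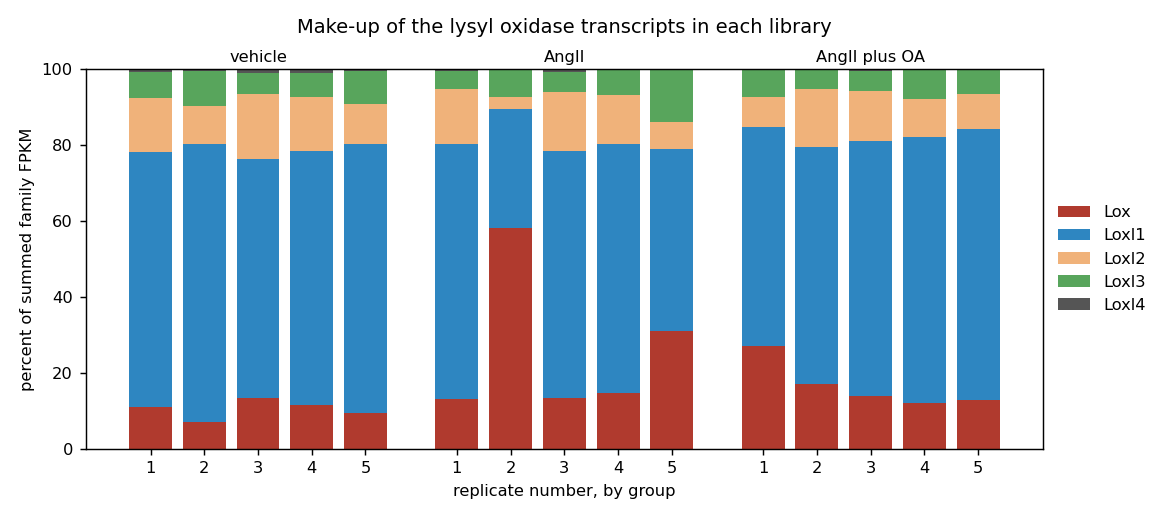
Share of each member in the summed FPKM of the family (percent, bars to 100) in the 15 libraries, ordered by group and replicate number. Lox takes 58.1% in AngII replicate 2 and 30.9% in AngII replicate 5, and between 13.2% and 14.6% in the other AngII libraries.

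Collagens and elastin are the substrates of the family, and several collagen genes rose as well. Of the 12 substrate genes listed (fibrillar and network collagens and elastin) 10 were tested, and 6 were called higher in AngII against vehicle and none lower. The list's median log2 difference was 0.90, beside 0.07 for all genes. Col3a1, the collagen of fine fibrils, rose from 25.7 ± 6.59 to 86.5 ± 45.5 FPKM (SD, n = 5 each; log2 difference 1.62, limma adjusted p = 0.0165). Col1a1 rose by 1.52, Col1a2 by 1.44 and Col5a2 by 1.27 on the log2 scale (limma adjusted p of 0.0127 to 0.0250). The other 2 called members, Col4a1 and Col4a2, each rose by 0.90. The 4 tested genes that were not called were Eln (0.87, limma adjusted p = 0.160), Col5a1 (0.65, limma adjusted p = 0.175), Col11a2 (-0.03) and Col5a3 (-0.45). Col5a1 was called as well without AngII replicate 2 (0.90, limma adjusted p = 0.0187), so that 7 of 10 were, including the same 6.

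Set against the mean of Col1a1, Col1a2 and Col3a1 in the same library, the ratio of Loxl4 passed with all libraries, and that of Loxl1 also without AngII replicate 2. Loxl1 relative to collagen was 0.13 ± 0.0755 in vehicle and -0.19 ± 0.352 in AngII hearts on the log2 scale (SD, n = 5 each; exact permutation p = 0.0556, adjusted over the 5 ratios 0.106). The ratio of Loxl2 had a log2 difference of -0.63 (exact permutation p = 0.0635, adjusted 0.106) and that of Loxl3 of -0.34 (exact permutation p = 0.341). That of Lox had a log2 difference of 0.77 (exact permutation p = 0.325). For Lox, 4 of the 5 AngII libraries lay at -2.33 to -1.33 and replicate 2 alone at 1.15, and without it the difference was 0.14 (exact permutation p = 0.659). The vehicle values of Lox were -2.67 to -1.77. Differences of low values are understated on this scale, so ratios of the less abundant members to the collagens can be pulled down. With 0.1 added in place of 1, the AngII differences were 2.64 for Lox, 1.08 for Loxl2 and 1.51 for Loxl3. With 1 added they were 2.30, 0.90 and 1.19. The ratio of the weakly detected Loxl4 differed by -1.45 (exact permutation p = 0.00794, adjusted 0.0397). Loxl4 itself differed by only 0.07 on the log2(FPKM + 1) scale. Its ratio to collagen, here and below, mostly repeats the collagen change with the sign reversed. Without AngII replicate 2, the Loxl1 ratio was lower in AngII than in vehicle hearts in each of the 4 libraries left, with a difference of -0.43 (exact permutation p = 0.00794, adjusted 0.0198), and the ratio of Loxl3 differed by -0.61 (exact permutation p = 0.0397, adjusted 0.0661). None passed in AngII plus OA against AngII with all libraries, and without AngII replicate 2 the ratio of Loxl1 did (0.35, exact permutation p = 0.00794, adjusted 0.0397). In AngII plus OA against vehicle none passed with all libraries, and those of Loxl1 (-0.18), Loxl3 (-0.49) and Loxl4 (-0.92) did without AngII plus OA replicate 5, by exact permutation with adjusted p of 0.0198 to 0.0265.

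**Figure D4:**
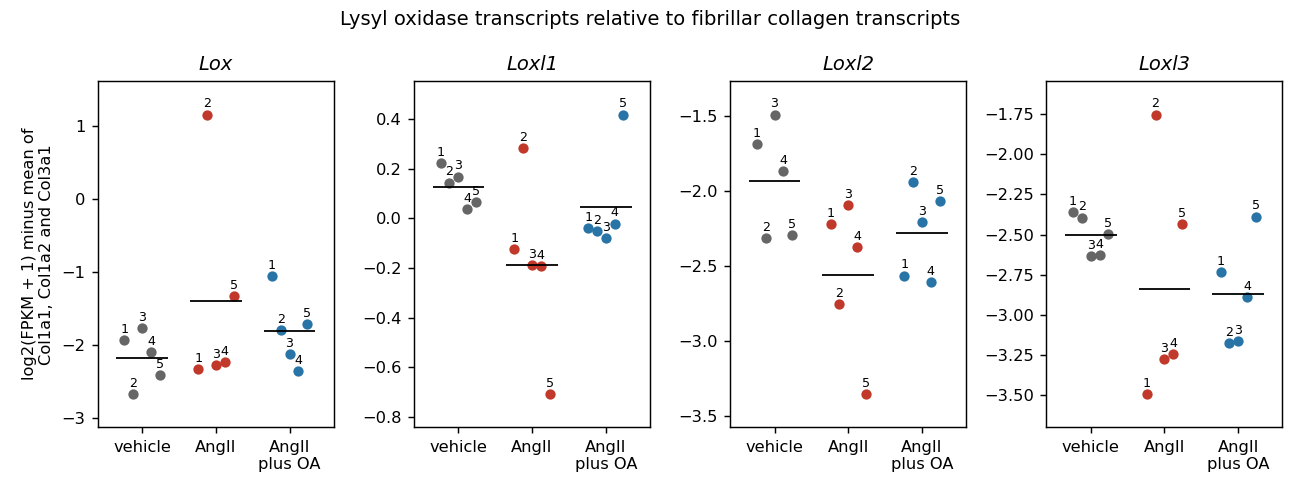
Log2(FPKM + 1) of each tested member minus the mean of Col1a1, Col1a2 and Col3a1 in the same library, by group; points are libraries with replicate numbers and bars are group means. AngII replicate 2 lies at 1.15 for Lox, above the other AngII libraries at -2.33 to -1.33.

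Matrix proteins that bind lysyl oxidases or place them on fibres were called higher for 5 of 8 tested in AngII against vehicle (median log2 difference 0.86). Postn (periostin), which helps Bmp1 to act on pro-Lox, rose by 2.16 (limma adjusted p = 0.0163). The microfibril protein Mfap4 rose by 1.66 (limma adjusted p = 0.0437), fibronectin (Fn1) by 0.86 (limma adjusted p = 0.0321) and fibrillin (Fbn1) by 0.86 (limma adjusted p = 0.0344). Mfap4 lost its call without AngII replicate 2 (1.63, limma adjusted p = 0.0622) and 4 of 8 were called. Both Postn and Mfap4 were highest in AngII replicate 5, at 153 and 112 FPKM. The other AngII libraries held 29.8 to 52.1 FPKM of Postn and 22.8 to 50.1 of Mfap4. Of the propeptide proteases and their enhancers, 0 of 4 tested were called. Bmp1, which cleaves the propeptides, stood at 15.7 ± 4.18 FPKM in vehicle and 18.5 ± 4.32 in AngII hearts, and its enhancer Pcolce at 20.1 ± 3.55 and 37.1 ± 12.9 (SD, n = 5 each; limma adjusted p = 0.584 and 0.108). Pcolce was called without AngII replicate 2 (0.98, limma adjusted p = 0.0348). Whether these lists differ from each other was not tested.

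Genes for lysine hydroxylation and copper handling, which prepare substrate and enzyme, were not called. Of the 5 lysyl hydroxylases and hydroxylysine glycosyltransferases, 0 were called, with a median log2 difference of 0.23. Without AngII replicate 2 the median was 0.44, again with 0 called. Plod1 differed by 0.23 with all libraries (limma adjusted p = 0.567) and by 0.44 without that library (limma adjusted p = 0.0533). Plod1 stood at 13.5 ± 1.62 and 16.5 ± 4.63 FPKM and Plod2, which hydroxylates collagen telopeptides, at 7.28 ± 1.62 and 11.8 ± 3.98 in vehicle and AngII hearts (SD, n = 5 each). Of the 5 copper genes tested of 8 listed, 0 were called (median 0.21, and 0.32 without AngII replicate 2, again with 0 called). The metallothionein Mt1 averaged 235 ± 131 and 809 ± 696 FPKM (SD, n = 5 each; limma adjusted p = 0.0908), with 2029 FPKM in AngII replicate 2 and an AngII mean of 504 ± 161 without it (SD, n = 4; limma adjusted p = 0.113). The copper chaperone Atox1 averaged 66.7 ± 31.3 and 80.5 ± 19.4 FPKM. Among 4 tested genes of other cross-linking enzymes and amine oxidases, 1 was called: the transglutaminase Tgm2 rose from 28.1 ± 3.84 to 50.3 ± 12.7 FPKM (SD, n = 5 each; limma adjusted p = 0.0170). Of 14 TGF-beta, hypoxia and mechanical regulators, 0 were called (median 0.31). Ccn2, a matricellular growth factor, averaged 44.5 ± 23.8 and 148 ± 132 FPKM (SD, n = 5 each; limma adjusted p = 0.117), with 374 FPKM in AngII replicate 2 and an AngII mean of 91.0 ± 43.2 without it (SD, n = 4; limma adjusted p = 0.136). The hypoxia factor Epas1 averaged 64.1 ± 6.59 and 70.8 ± 4.11.

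Markers of the cell types of the heart were compared in the same way. Of the 6 fibroblast markers, 1 was called higher in AngII against vehicle (Pi16, log2 difference 1.39, limma adjusted p = 0.0114), with a list median of 0.46. Of the 6 macrophage markers, 2 were called higher (Cd163, 0.90, and C1qa, 0.79; limma adjusted p = 0.0424 and 0.0304), and Cd163 was not called without AngII replicate 2 (limma adjusted p = 0.0681). None of the 4 smooth muscle, 5 endothelial, 6 ventricular cardiomyocyte, 3 atrial, 2 adipocyte and 3 mesothelial markers tested was called. The part of cell numbers in the changes of the family was not tested.

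In AngII plus OA against AngII, 0 genes of each of these lists were called. The medians of the log2 differences were -0.77 for the family, -0.81 for the substrates and -0.67 for the matrix partners, beside -0.05 for all genes. The reference here is the same AngII libraries in which these sets were high against vehicle. The sets were also chosen with earlier results of these data known, so an effect of OA was not tested by these medians. Col4a1, a basement membrane collagen and the most abundant substrate listed, averaged 62.0 ± 15.8 FPKM with OA and 107 ± 20.1 under AngII alone (SD, n = 5 each; limma adjusted p = 0.706). Postn averaged 32.3 ± 12.2 and 67.1 ± 49.1 FPKM (limma adjusted p = 0.737). The 6 ventricular cardiomyocyte markers had a median difference of 0.34. Their AngII reference includes replicate 2, whose cardiomyocyte sum was 9675 FPKM, against 17211 in the next AngII library. Between AngII and vehicle, the median of these markers was -0.14 with that library and -0.02 without it. The median between the treated groups was not computed without it. In AngII plus OA against vehicle, again with 0 called, the medians were 0.44 for the family, 0.18 for the substrates and 0.31 for the partners, beside 0.02 for all genes.

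Each member's closest companions were the 5 genes with the highest Pearson correlation of log2(FPKM + 1) over the 15 libraries, given as a description, since the libraries share their treatments and some of their cell content. For Loxl1 they were Col1a2 (r = 0.98), the procollagen N-proteinase Adamts2, Col3a1, the proteoglycan Bgn and C1qtnf6 (r = 0.96). For Loxl2 they were the proteoglycan Vcan (r = 0.94), Fbln2, the skeletal actin Acta1, Col8a1 and Col4a1 (r = 0.92). For Loxl3 they were Cthrc1 (r = 0.95), Fn1, Ltbp3, Dok1 and the NADPH oxidase Nox4 (r = 0.93). The companions of these 3 members thus included collagens or other matrix genes. Lox had the formin Fmnl2 (r = 0.96), Casp12, the receptor Tgfbr1, Cnot11 and the annexin Anxa1 (r = 0.94). Loxl4, with 4 to 30 reads, had Nup214 (r = 0.93), Rbsn, Notch1, Arid1b and Atxn1l (r = 0.86). Without AngII replicate 2, 1 of these 5 genes remained among the closest 5 for Lox, 2 for Loxl1, 3 for Loxl2, 1 for Loxl3 and 3 for Loxl4. Over those 14 libraries the closest 5 of Lox were the thrombospondin Thbs4 (r = 0.96), Cilp, Cthrc1, Fibin and Fmnl2 (r = 0.95). The first gene for Loxl1 (Col1a2, r = 0.98), for Loxl3 (Cthrc1, r = 0.94) and for Loxl4 (Nup214, r = 0.90) was the same with and without that library.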

How the data were processed

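The deposited table gives FPKM as the authors computed them, 1 column for each of 15 libraries. HISAT2 2.0.4 and the genome build mm8 are named in the submitters' processing notes; which program counted the reads, on which annotation and with which strand setting, and which computed FPKM, is not given in the sources used here. Groups came from the sample titles. The labels give no batch. Symbols, from GENCODE M21 on another build, matched 36464 of 36653 identifiers, so no coordinates are printed. Each member's FPKM gave whole reads within a tolerance of 0.02 in all 15 libraries, for Lox with a length of 4810 bases taken from its own values and for the others with the reference exon length. Replicates of a group always differed by more than sampling noise, with a chi-square of at least 28.3 per degree of freedom.

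On the log2(FPKM + 1) scale, 1 fit of all libraries was made with limma (version 3.58.1, R 4.3.3; intensity trend), limited to the 13121 genes whose mean was 0.5 FPKM or more. P-values were adjusted by Benjamini-Hochberg per comparison, and a gene was called under 0.05. Loxl4, ratios and shares were compared by 2-sided exact permutation (smallest p 0.00794). The fit was checked on simulated data. All 5 members are named, with up to 4 called genes of each list (with none called, the 2 most abundant) and the 5 genes closest to each member. Members and lists were chosen with earlier results of these data known. Alternatives covered the pseudocount, filter, normalization, libraries fitted, a replicate block and leaving out each library. The values without AngII replicate 2 for ratios of means, single pairs and collagen ratios, list genes and closest genes were added after seeing the data. Eln, Col5a1, Col5a3 and Col11a2 are named outside the rule, after their values were seen, to complete their list.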

Additional observations from a re-analysis of the deposited data

How the results depend on the processing

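In AngII against vehicle, 2 members were called. The count was 1 (Loxl1) without the low-value filter, after quantile normalization, after rescaling without mitochondrially encoded genes, with only the 10 libraries compared and with the replicate block, where Lox had limma adjusted p of 0.113, 0.0675, 0.0530, 0.118 and 0.0786. It was 2 with a pseudocount of 0.1 and with a minimum mean of 1 FPKM, and 1 to 3 when each library was left out. Loxl1 was called in all 17 of these settings (limma adjusted p up to 0.0452), and the log2 differences of the 4 tested members kept their sign in every setting and comparison. Over all genes, 197 were called, against 38 with the replicate block, 72 without the filter, 70 with only the 10 libraries, 109 after quantile normalization, 123 after rescaling and 49 to 425 when each library was left out.

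The replicate numbers were not shown to pair animals. Deviations of same-numbered libraries correlated at -0.350 to 0.435, with 6 of 15 pairs above 0.1. Those of different-numbered libraries correlated at -0.432 to 0.457, with 21 of 60 pairs above 0.1. The block changed no other call of a member. Leaving out each library gave 0 to 6 unequal pairs and 1 to 2 collagen ratios in AngII against vehicle, 0 to 1 collagen ratios in AngII plus OA against AngII, and 0 to 3 pairs and 0 to 3 collagen ratios in AngII plus OA against vehicle. In that last comparison a pseudocount of 0.1 gave 4 pairs and 1 collagen ratio. The Lox share difference ran from 7.56 to 18.8 points for AngII and from 3.48 to 7.27 for AngII plus OA against vehicle. The causes were not tested. Loxl4, at 4 to 30 reads, is limited by depth.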
